A study of Mus musculus with 12 samples.

Results

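Oocytes that lack both mitofusins were compared with wild-type (WT) oocytes over every gene of the deposited count table. The comparison takes 6 of the 12 libraries of the series, 3 labelled Mfn1&2-/- and 3 labelled WT. It was repeated with 5 of them, leaving out WT replicate 3. Each library came from a pool of 50 denuded germinal-vesicle oocytes, the stage arrested in meiotic prophase within the follicle, freed of their surrounding cumulus cells. The mice were unprimed, labelled C57BL/6J and 21 to 23 days old, and all 4 groups (WT, Mfn1-/-, Mfn2-/- and Mfn1&2-/-) share that strain label and age. The labels name no promoter or Cre that would restrict the deletions to oocytes. They give no animal behind a pool, so p-values measure the spread between these pools, which may be partly technical.

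Mitofusin 1 and mitofusin 2 are GTPases of the outer mitochondrial membrane. Molecules on neighbouring mitochondria bind each other and draw the membranes together until they fuse. Mitofusin 2 also lies on the endoplasmic reticulum (ER), where it helps to hold ER and mitochondria close to each other. The oocyte passes its mitochondria to the embryo. At the end of growth its nucleus comes close to transcriptional rest, and much of its mRNA is a store laid down while it grew.

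Levels are CPM, counts scaled to library size after TMM scaling, a correction for differences in library composition. They are given in the order of replicates 1, 2 and 3. Values after ± are the SD over 3 libraries for CPM, and an approximate standard error for log2 fold changes. A gene was called, and is said to have risen or fallen, where edgeR's quasi-likelihood test gave a Benjamini-Hochberg adjusted p below 0.05 over all 11385 genes. Libraries held 11575357 to 16024893 counts, and 3 counts in 1 library, the floor of a library, stood at 0.188 to 0.253 CPM. Fold bounds for groups without a count used 3 counts over the whole group instead, a lower level in CPM. In WT replicate 3, 8 of the 11 measured granulosa cell markers had their highest value of all 12 libraries. The summed level of the list was 893 CPM there against 442 to 542 CPM in the other 11.

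Both targeted genes were low in all 3 double-knockout pools. Mfn1 (chromosome 3, 32529465 to 32579239) stood at 264, 278 and 297 CPM in WT and at 26.4, 19 and 14.8 CPM in Mfn1&2-/- (log2 fold change -3.80 ± 0.16, edgeR adjusted p = 6.14e-10). Mfn2 (chromosome 4, 147873599 to 147904704) stood at 87.2, 73.4 and 68.4 CPM in WT and at 12.3, 10.1 and 9.99 CPM in Mfn1&2-/- (log2 fold change -2.83 ± 0.17, edgeR adjusted p = 6.11e-08). The groups did not overlap for either gene. The level that remained did not differ detectably from that of the matching single knockout. On the log2 scale Mfn1 in Mfn1&2-/- differed from Mfn1-/- by 0.14 ± 0.16, edgeR adjusted p = 0.654, and Mfn2 from Mfn2-/- by -0.05 ± 0.17, edgeR adjusted p = 0.885. Positions here and below are GRCm38 (mm10) gene spans of GENCODE vM21.

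Loss of both mitofusins went with a change in 479 of 11385 genes (4.21% of those tested), 239 higher (2.10%) and 240 lower (2.11%). Of the risen genes 120 moved more than 2-fold and 36 more than 8-fold, and of the fallen genes 122 and 28. The median log2 fold change over all genes was 0.00. In 466 of the 479 called genes the 3 double-knockout libraries lay outside the WT range, as they did in 2516 of all genes tested (22.1%). DESeq2 called 834 genes, and 93 passed a test against a 1.5-fold change. The median called gene was near a 2-fold change in each pool. Over the 239 risen genes the median log2 ratio to the WT mean was 0.83, 0.96 and 1.04 in pools 1, 2 and 3. Over the 240 fallen genes it was -0.99, -1.10 and -1.03. These genes were called from the same libraries, so a shift in every pool follows largely from the choice. For some genes the double-knockout pools were farther apart: the highest pool was more than 3 times the lowest in 16 of the risen and 12 of the fallen genes (after adding 0.5 CPM). For the WT pools the same held in 6 of the risen and 19 of the fallen genes.

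**Figure D1:**
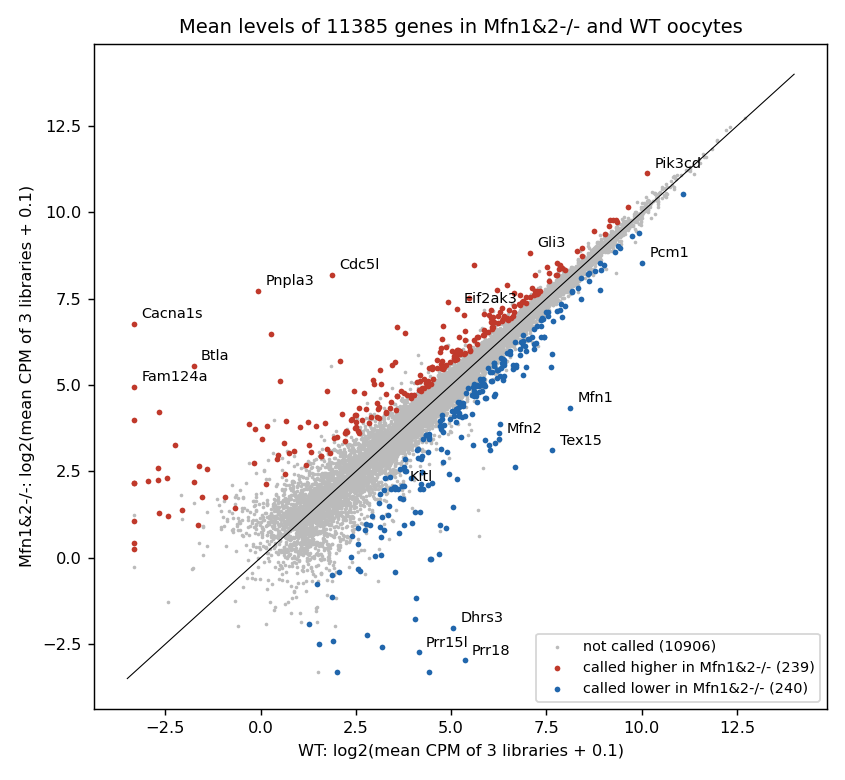
Mean levels of all 11385 genes in Mfn1&2-/- oocytes (vertical axis) against WT oocytes (horizontal axis), both as log2 of the mean CPM of 3 libraries plus 0.1, with 1 point per gene; red points were called higher (239), blue points lower (240). Most genes lie on the diagonal, and a small number at the left and lower edges have no or few counts in one group and clear expression in the other.

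A small set of genes had no or few counts in WT and a clear level in the double knockout. Cacna1s, the pore-forming subunit of the calcium channel of skeletal muscle (chromosome 1, 136052750 to 136119822), had no count in any WT pool and stood at 67, 174 and 86.3 CPM in Mfn1&2-/-, at least 1377-fold higher in pooled counts against the floor of 3 counts over the group (edgeR adjusted p = 0.00315). Fam124a, of little-known function (chromosome 14, 62555737 to 62608486), also had no WT count and stood at 32.2, 20.8 and 39.7 CPM, at least 367-fold higher (edgeR adjusted p = 1.09e-06). Pnpla3, an enzyme of lipid droplets that acts on triglyceride and retinyl esters (chromosome 15, 84167837 to 84187236), went from 0.559, 0.422 and 1.59 CPM to 190.3, 300.4 and 148 CPM (log2 fold change 7.95 ± 0.47, edgeR adjusted p = 5.14e-08). Each double-knockout pool of these 3 genes was more than 50 times the floor of a library. Cdc5l, a core factor of the spliceosome (chromosome 17, 45391884 to 45433737), was present in WT at 1.92, 3.12 and 5.68 CPM and reached 336, 272 and 270.1 CPM (log2 fold change 6.36 ± 0.33, edgeR adjusted p = 1.04e-08). All 4 calls were kept without each of the 12 libraries in turn. That of Cacna1s was lost under limma-voom (adjusted p = 0.299, with 4.51e-07 to 0.299 over all alternatives).

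The promoters of these genes are shown because their transcripts rose by large folds from low WT levels. That of Eif2ak3, a stress kinase described below that rose from a clear WT level, and that of Dhrs3, which fell, stand beside them. Each run is the RefSeq window of 300 bases (GRCm38.p6), from 250 bases before the start to 50 after it, 5′ to 3′ on the gene's strand. Capitals mark matches, on either strand, to the motifs searched, which are listed further down.
Cacna1s (chr1:136052561-136052860, plus strand): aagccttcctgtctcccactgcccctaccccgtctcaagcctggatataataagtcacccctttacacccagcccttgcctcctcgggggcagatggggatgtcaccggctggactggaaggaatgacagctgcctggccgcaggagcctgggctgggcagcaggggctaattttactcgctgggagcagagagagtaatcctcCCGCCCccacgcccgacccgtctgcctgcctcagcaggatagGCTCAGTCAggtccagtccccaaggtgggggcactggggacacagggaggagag
Fam124a (chr14:62555487-62555786, plus strand): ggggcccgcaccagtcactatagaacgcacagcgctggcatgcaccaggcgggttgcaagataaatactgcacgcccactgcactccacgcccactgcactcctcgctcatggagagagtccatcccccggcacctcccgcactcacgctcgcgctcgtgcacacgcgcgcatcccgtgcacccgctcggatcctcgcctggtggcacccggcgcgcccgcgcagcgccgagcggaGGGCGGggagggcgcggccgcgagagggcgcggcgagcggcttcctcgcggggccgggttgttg
Pnpla3 (chr15:84167566-84167865, plus strand): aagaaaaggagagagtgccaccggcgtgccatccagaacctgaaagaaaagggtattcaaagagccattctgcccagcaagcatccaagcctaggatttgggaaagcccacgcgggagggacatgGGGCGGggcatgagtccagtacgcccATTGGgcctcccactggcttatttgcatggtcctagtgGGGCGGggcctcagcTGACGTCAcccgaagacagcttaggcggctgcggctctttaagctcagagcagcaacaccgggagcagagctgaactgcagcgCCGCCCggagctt
Cdc5l (chr17:45433658-45433957, minus strand): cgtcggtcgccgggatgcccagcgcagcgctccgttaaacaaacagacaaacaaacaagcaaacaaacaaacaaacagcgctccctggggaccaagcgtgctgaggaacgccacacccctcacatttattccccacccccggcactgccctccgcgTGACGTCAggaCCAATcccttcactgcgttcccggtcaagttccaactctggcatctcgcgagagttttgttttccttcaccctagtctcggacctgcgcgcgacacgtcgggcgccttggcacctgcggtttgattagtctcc
Eif2ak3 (chr6:70844265-70844564, plus strand): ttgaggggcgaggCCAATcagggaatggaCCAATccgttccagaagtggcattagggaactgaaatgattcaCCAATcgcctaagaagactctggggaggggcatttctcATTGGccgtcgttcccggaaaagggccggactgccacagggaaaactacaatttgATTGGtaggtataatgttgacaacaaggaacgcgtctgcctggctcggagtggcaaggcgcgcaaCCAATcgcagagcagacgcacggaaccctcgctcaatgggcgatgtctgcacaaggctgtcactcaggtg
Dhrs3 (chr4:144892577-144892876, plus strand): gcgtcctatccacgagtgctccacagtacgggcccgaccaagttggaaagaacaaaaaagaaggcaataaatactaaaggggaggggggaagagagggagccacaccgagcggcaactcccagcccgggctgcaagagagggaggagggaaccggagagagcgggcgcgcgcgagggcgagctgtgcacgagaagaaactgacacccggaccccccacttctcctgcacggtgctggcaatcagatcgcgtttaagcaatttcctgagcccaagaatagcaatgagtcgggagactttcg
Pnpla3 and Cdc5l both hold the full cyclic AMP response element TGACGTCA, 46 and 94 bases before the start, a motif found in 3.50% of the 9038 promoters matched to tested genes. Eif2ak3 holds 6 CCAAT boxes, and Dhrs3 none of the motifs marked.

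Other genes with low WT levels also rose. Nfam1, an immune receptor that signals through tyrosines, went from 0, 0.169 and 0 CPM to 8.76, 28.1 and 19 CPM (783 counts against 2, a ratio of 353 with a 95% counting interval of 97.4 to 2921; edgeR adjusted p = 0.00014). Btla, an inhibitory receptor of lymphocytes, went from 0, 0.169 and 0.418 CPM to 34.7, 37.4 and 69.3 CPM (log2 fold change 7.86 ± 0.50, edgeR adjusted p = 7.7e-08). Stk32a, a serine/threonine kinase, went from 0.639, 0.928 and 1.75 CPM to 91, 85.6 and 90.5 CPM (log2 fold change 6.32 ± 0.57, edgeR adjusted p = 5.72e-06). For these 3 the lowest double-knockout pool was far above the highest WT pool. Foxi3, a forkhead factor of ectodermal tissues, had 1 count over the WT pools and stood at 9.34, 1.05 and 3.33 CPM (171 counts, a ratio of 154 with an interval of 27.3 to 6128; edgeR adjusted p = 0.00448). Pdgfrl, related to the receptor for platelet-derived growth factor, had no WT count and stood at 2.86, 5.19 and 5.15 CPM, at least 54.4-fold higher in pooled counts (edgeR adjusted p = 0.00631). These 5 calls were kept without each library.

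Further genes rose by large folds. Zbtb7c, a transcriptional repressor, stood at 0.878, 0 and 1.25 CPM in WT and at 7.91, 23.3 and 12.7 CPM in Mfn1&2-/- (log2 fold change 4.35 ± 0.67, edgeR adjusted p = 0.00148). Ptprv, a receptor-type tyrosine phosphatase, stood at 1.52, 1.94 and 0.501 CPM and at 45.5, 28.9 and 29.5 CPM (log2 fold change 4.70 ± 0.93, edgeR adjusted p = 0.00931). Dusp4, a phosphatase that switches off MAP kinases, stood at 0.0799, 0.253 and 0.501 CPM and at 2.86, 7.43 and 7.12 CPM (log2 fold change 4.35 ± 0.88, edgeR adjusted p = 0.0103). In all 3, chosen among genes without overlap between the groups, the double-knockout pools differed from each other by more than 1.5-fold. Pcdh19, a protocadherin of the X chromosome, rose by 4.76 ± 0.93, with its pools at 1.68, 10.1 and 6.89 CPM. Under limma-voom 3 of these calls were lost: Ptprv had adjusted p = 0.125, with 4.86e-05 to 0.125 over all alternatives, Dusp4 had adjusted p = 0.0659, with 2.2e-05 to 0.0659 over all alternatives, and Pcdh19 had adjusted p = 0.0871, with 3.08e-06 to 0.0871 over all alternatives. Ppp1r3b, which brings protein phosphatase 1 to glycogen, rose by 6.31 ± 1.33, a call lost when WT replicate 1 or 2 was left out (adjusted p = 0.0502 to 0.0578). Spesp1, a protein of the sperm head, had no WT count but was also without a count in double-knockout pool 1 (0, 23.1 and 24.1 CPM, at least 201-fold higher in pooled counts); its call was lost when any of 9 of the 12 libraries was left out (adjusted p = 0.0521 to 0.12). Slc46a3, a lysosomal transporter, had the same pattern (0, 5.79 and 12 CPM against 0.16, 0 and 0 CPM in WT, a ratio of 111 with an interval of 30.5 to 925). Its call was lost when WT replicate 1, 2 or 3, or Mfn1&2-/- replicate 2 or 3, was left out (adjusted p = 0.0602 to 0.101). Syde2 went from 0.16, 0.0843 and 0 to 1.09, 5.98 and 7.42 CPM (a ratio of 60.7 with an interval of 20.5 to 297), a call lost when WT replicate 2 or 3 was left out (adjusted p = 0.05 to 0.0523). The calls of Ppp1r3b, Spesp1, Slc46a3 and Syde2 were also lost under limma-voom, and that of Spesp1 under DESeq2 as well.

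Other transcripts had a clear level in WT and a far lower one in the double knockout. Prr18, of little-known function, stood at 36.7, 45.7 and 39.8 CPM in WT and had 1 count over the double-knockout pools against 1477 (a WT to double-knockout ratio of 1637, with a 95% counting interval of 293 to 64718; edgeR adjusted p = 0.00926). Dhrs3, which reduces retinal to retinol, stood at 36.3, 40.4 and 22.3 CPM and at 0, 0.132 and 0.303 CPM (log2 fold change -7.71 ± 0.48, edgeR adjusted p = 6.92e-08). Prr15l stood at 17.5, 21.7 and 13.6 CPM and at 0, 0 and 0.151 CPM (639 counts against 2, a ratio of 354 with an interval of 97.7 to 2931; edgeR adjusted p = 1.72e-05). In each of the 3 the double-knockout pools were at or near the floor of a library. Tie1, a receptor kinase known from endothelium, stood at 4.63, 9.62 and 12.6 CPM and at 0, 0.197 and 0 CPM (323 counts against 3, a ratio of 119 with an interval of 40.5 to 582; edgeR adjusted p = 0.000122). Glt25d2 (now Colgalt2), which adds galactose to collagen, stood at 16.2, 20.1 and 14.4 CPM and at 0.842, 0.132 and 0.0757 CPM (log2 fold change -5.64 ± 0.47, edgeR adjusted p = 2.44e-06). Sec16b, an organiser of ER exit sites, stood at 26.9, 36.5 and 22.9 CPM and at 1.35, 0.526 and 3.25 CPM (log2 fold change -4.08 ± 0.44, edgeR adjusted p = 4.7e-05). Those 6 calls were kept without each library.

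Tex15, which acts in meiotic recombination and in silencing of transposons in the male germ line (chromosome 8, 33516738 to 33585582), stood at 244, 119 and 241 CPM in WT and at 9.18, 7.43 and 9.16 CPM in Mfn1&2-/- (log2 fold change -4.56 ± 0.75, edgeR adjusted p = 0.00244). Every WT pool was more than 10 times every double-knockout pool. Extl1, a glycosyltransferase of the heparan sulfate family, stood at 15.4, 46.1 and 15.1 CPM and at 0.673, 1.64 and 0.606 CPM (log2 fold change -4.66 ± 0.82, edgeR adjusted p = 0.00384). Slc39a8, an importer of zinc and manganese, stood at 15.2, 19 and 30.8 CPM and at 0.0842, 2.37 and 0.151 CPM (log2 fold change -4.54 ± 0.83, edgeR adjusted p = 0.00543). Those 3 calls too were kept without each library, but all were lost under limma-voom. There Tex15 had adjusted p = 0.0659, with 5.73e-07 to 0.0659 over all alternatives, Extl1 had adjusted p = 0.0765, with 0.000297 to 0.0765 over all alternatives, and Slc39a8 had adjusted p = 0.0913, with 0.000844 to 0.0913 over all alternatives. Tnfsf11, the cytokine RANKL, stood at 20.1, 22.9 and 23.5 CPM in WT and 0, 2.63 and 0 CPM in Mfn1&2-/-, a call lost when Mfn1&2-/- replicate 3 was left out (adjusted p = 0.0608). Rnase6, a secreted ribonuclease, stood at 17.7, 37.3 and 22.8 CPM in WT and 1.01, 4.34 and 0.0757 CPM in Mfn1&2-/-, a call lost when WT replicate 2 or 3, or Mfn1&2-/- replicate 1 or 3, was left out (adjusted p = 0.0559 to 0.103). The calls of Tnfsf11 and Rnase6 were also lost under limma-voom. Defb8, a defensin, had no count in Mfn1&2-/- and 5.43, 5.15 and 1.25 CPM in WT, at least 53.2-fold lower, a call lost when WT replicate 1 or 2, or Mfn1&2-/- replicate 2 or 3, was left out (adjusted p = 0.0569 to 0.085). Pira6, a receptor of a family of near-identical genes whose shared reads make it uncertain, went from 2.16, 4.72 and 1.42 to 0, 0 and 0.227 CPM (a ratio of 37 with an interval of 12.3 to 182), a call lost when WT replicate 2, or Mfn1&2-/- replicate 1 or 2, was left out (adjusted p = 0.0538 to 0.0933).

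**Figure D2:**
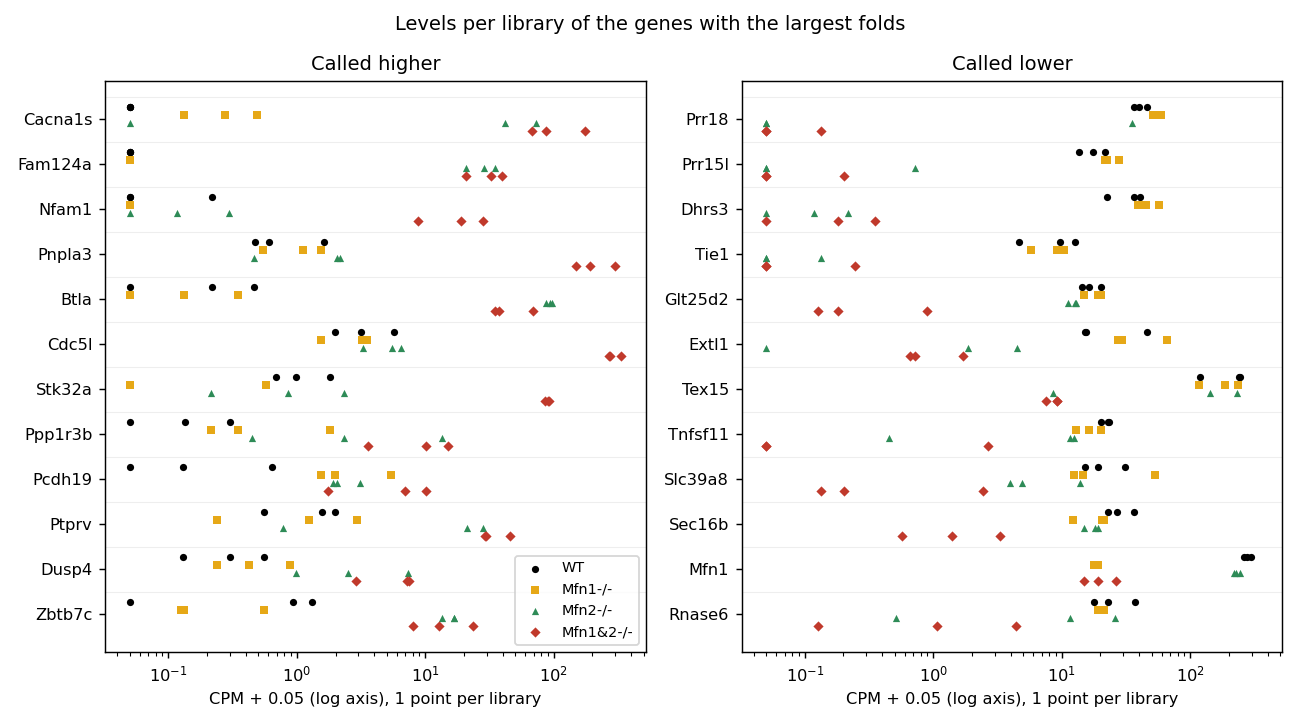
Level of the 12 genes with the largest fold in each direction, 1 point per library and 3 libraries per group (black WT, orange Mfn1-/-, green Mfn2-/-, red Mfn1&2-/-); the horizontal axis is CPM plus 0.05 on a log scale. The genes were chosen among called genes whose red and black points do not overlap. The green points lie with the red ones for Fam124a, Dhrs3 and Prr15l, and with the black ones for Pnpla3, Cdc5l and Glt25d2. They lie on both sides for Cacna1s, Prr18 and Tex15.

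The double knockout was also set against each single knockout for these genes. Across all genes, Mfn1&2-/- differed from Mfn1-/- in 610 of 11385 genes (5.36%) and from Mfn2-/- in 1163 (10.2%). All these comparisons share the double-knockout libraries, so the values are given side by side. Pnpla3 stood at 1.5, 1.07 and 0.50 CPM in Mfn1-/- and 2.13, 0.415 and 2.01 CPM in Mfn2-/-, and the double knockout was higher than both (against Mfn2-/-, 7.08 ± 0.43, edgeR adjusted p = 1.15e-07). Cdc5l stood at 3.46, 1.5 and 3.16 CPM in Mfn1-/- and 6.46, 3.24 and 5.49 CPM in Mfn2-/- (against Mfn2-/-, 5.83 ± 0.32, edgeR adjusted p = 2.88e-08). Neither single knockout reached the double-knockout level of either gene. Stk32a (2.26, 0.166 and 0.803 CPM in Mfn2-/-) and Nfam1 (0.0666, 0.249 and 0 CPM) likewise differed from Mfn2-/- (log2 differences of 6.30 ± 0.56, edgeR adjusted p = 9.91e-06, and of 7.46 ± 0.82, edgeR adjusted p = 0.000167). On the lower side, Glt25d2 stood at 19, 14.9 and 20.2 CPM in Mfn1-/- and 12.9, 12.7 and 11.2 CPM in Mfn2-/- (against Mfn2-/-, -5.18 ± 0.47, edgeR adjusted p = 1.01e-05), and Sec16b at 14.9, 19.3 and 18 CPM in Mfn2-/- (-3.35 ± 0.43, edgeR adjusted p = 0.000337).

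Fam124a and Dhrs3 did not differ detectably between the double knockout and Mfn2-/-. Fam124a stood at 34.7, 28.6 and 20.7 CPM in Mfn2-/- and had no count in Mfn1-/- (Mfn1&2-/- against Mfn2-/-, 0.14 ± 0.28, edgeR adjusted p = 0.807). Dhrs3 stood at 0, 0.166 and 0.0669 CPM in Mfn2-/- and 56.6, 45.1 and 39.1 CPM in Mfn1-/- (against Mfn2-/-, 0.96 ± 1.01, edgeR adjusted p = 0.6). Btla was lower in the double knockout than in Mfn2-/-, where it stood at 96.1, 92.9 and 87.2 CPM (-0.97 ± 0.29, edgeR adjusted p = 0.0435).

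For some genes the 3 Mfn2-/- pools split. Cacna1s stood at 0, 41.4 and 72.4 CPM in Mfn2-/- pools 1, 2 and 3, Ptprv at 0.732, 21.1 and 27.8 CPM, and Prr18 at 34.9, 0 and 0 CPM. In each, pool 1 was near the WT level and pools 2 and 3 near that of the double knockout. Ptprv (135108497 to 135132594) and Cacna1s both lie between 130 and 140 Mb of chromosome 1. In that window 11 of 67 genes were called (16.4%), and 9 without WT replicate 3. These 2 genes are therefore not separate places in the genome, and whether they change together was not tested. Tex15 split differently: it stood at 142, 8.47 and 232 CPM, with pool 2 alone near the double-knockout level. The label of Mfn2-/- pool 1 spells its genotype Mn2-/-, and its Mfn2 level (9.19, 10.8 and 13.5 CPM over the 3 pools) was as low as in the others.

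Among abundant transcripts the changes were smaller. Pik3cd, a catalytic subunit of PI3-kinase, gained the most CPM: it stood at 1251, 1106 and 1056 CPM in WT and at 2289, 2228 and 2193 CPM in Mfn1&2-/- (log2 fold change 0.98 ± 0.08, edgeR adjusted p = 2.4e-06; chromosome 4, 149649168 to 149702571). Gli3, the zinc finger factor that carries Hedgehog signals to the nucleus, stood at 193, 92 and 119 CPM and at 357, 545 and 465 CPM (log2 fold change 1.76 ± 0.22, edgeR adjusted p = 0.000223; chromosome 13, 15463235 to 15730026). Tgfb2, a growth factor of the TGF-beta family, stood at 613, 620.0 and 693 CPM and at 823, 947 and 887 CPM (log2 fold change 0.46 ± 0.09, edgeR adjusted p = 0.00923). These 3 were chosen among called genes without overlap between the groups, and their calls were kept without each library. In Mfn2-/- Tgfb2 stood at 421, 423 and 469.6 CPM, below every WT pool, and the double knockout exceeded Mfn2-/- by 1.02 ± 0.09, edgeR adjusted p = 1.01e-05. Gli3 stood at 371, 307 and 385 CPM in Mfn1-/- and did not differ detectably from the double knockout (0.36 ± 0.21, edgeR adjusted p = 0.354). C2cd5, a membrane trafficking protein, rose by 0.53 ± 0.12 (lost when WT replicate 1 or 3, or Mfn1&2-/- replicate 2, was left out, adjusted p = 0.0574 to 0.0805). Usp15, a deubiquitinase, rose by 0.38 ± 0.10 (lost when any of 8 of the 12 libraries was left out, adjusted p = 0.0527 to 0.141).

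Among abundant transcripts that fell, Pcm1, the scaffold of centriolar satellites, stood at 967, 1006 and 1134 CPM in WT and at 405, 375 and 338 CPM in Mfn1&2-/- (log2 fold change -1.47 ± 0.28, edgeR adjusted p = 0.00691). Inadl (now Patj), a scaffold of tight junctions, stood at 396, 523 and 519.7 CPM and at 266, 199 and 185 CPM (log2 fold change -1.15 ± 0.14, edgeR adjusted p = 0.000223). Lrp1, an endocytic receptor, stood at 446, 595 and 515 CPM and at 353, 351 and 362 CPM (log2 fold change -0.55 ± 0.11, edgeR adjusted p = 0.00858). Sp110, a nuclear body protein, stood at 676, 749.5 and 660.2 CPM and at 474, 539 and 479 CPM (log2 fold change -0.48 ± 0.09, edgeR adjusted p = 0.00827). These 4 calls, chosen among genes without overlap between the groups, were kept without each library. Plat, tissue plasminogen activator, whose mRNA the growing oocyte stores for use at maturation, stood at 1917, 2272 and 2272 CPM and at 1590.4, 1397 and 1478 CPM (log2 fold change -0.53 ± 0.14, edgeR adjusted p = 0.0412), a call lost when WT replicate 2 or 3, Mfn1-/- replicate 2, or Mfn1&2-/- replicate 2 or 3, was left out (adjusted p = 0.057 to 0.14). Abl2, a tyrosine kinase of the actin cytoskeleton, fell (log2 fold change -0.52 ± 0.11), a call lost when WT replicate 2 or Mfn1&2-/- replicate 2 was left out (adjusted p = 0.0539 to 0.0667).

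Gene groups were described with 40 lists, 39 of which had members in the table. Over their 1146 distinct members 27 rose and 23 fell, 4.36% called against 4.21% of all genes. Entries without a row in the table were not analysed, so some lists were covered only in part. Rows were present for 24 of 37 intrinsic apoptosis, 26 of 33 integrated stress response and 20 of 30 heat shock and immediate early entries. Absent were, among others, Bcl2, Bak1, Bbc3, Trib3, Atf3, Fos and Jun. In the list of mitochondrial fusion and fission genes 0 of 25 rose and 4 fell (median log2 fold change -0.07). Beside the 2 deleted genes these were Mff, the receptor that brings the fission GTPase Drp1 to mitochondria, at 140.1, 175 and 142 CPM in WT and 110.4, 103 and 102 CPM in Mfn1&2-/- (log2 fold change -0.53 ± 0.12, edgeR adjusted p = 0.0147), and Mtfr1l, a regulator of fission, at 72.8, 85.4 and 62.4 CPM in WT and 39.6, 42.9 and 46.6 CPM in Mfn1&2-/- (log2 fold change -0.77 ± 0.17, edgeR adjusted p = 0.0142). Neither overlapped between the groups. The Mff call was lost when WT replicate 2, or Mfn1&2-/- replicate 2 or 3, was left out (adjusted p = 0.0596 to 0.0711). That of Mtfr1l was lost when WT replicate 2 or Mfn1&2-/- replicate 2 was left out (adjusted p = 0.0513 to 0.0675). Among mitochondrial transport genes 1 of 9 rose and 0 fell: Snph, syntaphilin, which anchors mitochondria to microtubules, stood at 49.6, 40.4 and 32.2 CPM in WT and 68.5, 79.7 and 88.3 CPM in Mfn1&2-/- (0.95 ± 0.21), a call lost when WT replicate 2 or 3, or Mfn1&2-/- replicate 2 or 3, was left out (adjusted p = 0.0503 to 0.0718).

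In the ER-mitochondria contact list 1 of 20 rose and 1 fell (median -0.08). Rmdn3, the outer-membrane tether PTPIP51, stood at 46.2, 54.7 and 48.4 CPM in WT and 33.3, 31.7 and 29.5 CPM in Mfn1&2-/- (log2 fold change -0.66 ± 0.13, edgeR adjusted p = 0.0103), and was also lower than in Mfn2-/- (-0.90 ± 0.13, edgeR adjusted p = 0.000912). Ccdc109b (now Mcub), the subunit that dampens the mitochondrial calcium uniporter, was uneven in the double knockout, at 122, 17.8 and 130.0 CPM against 10.6, 11.1 and 19.5 CPM in WT (2.71 ± 0.49), with pool 2 inside the WT range, and its call was lost under limma-voom (adjusted p = 0.105, with 4.57e-07 to 0.105 over all alternatives). Among calcium channels, pumps and stores 3 of 28 rose and 1 fell (14.3% called against 4.21% of all genes, median -0.08). Besides Cacna1s, the auxiliary channel subunit Cacnb3 rose from 36.1, 33.9 and 32.7 to 49.5, 55.5 and 52.2 CPM (0.61 ± 0.12; kept without each library). Atp2b4, a plasma membrane calcium pump, rose from 68.8, 61.7 and 76.7 to 101, 116 and 125 CPM (0.73 ± 0.16; lost when WT replicate 2, or Mfn1&2-/- replicate 2 or 3, was left out, adjusted p = 0.0525 to 0.0687). Cacnb2, another auxiliary subunit, fell from 51.5, 37.2 and 37 to 26.1, 29.1 and 26 CPM (-0.63 ± 0.16; lost when WT replicate 1, or Mfn1&2-/- replicate 1, 2 or 3, was left out, adjusted p = 0.0634 to 0.131).

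Genes of the respiratory chain, of the 2 kinds of ribosome and of mitochondrial protein quality held 5 calls among 250 tested members. Over all genes 479 of 11385 were called (4.21%). Of OXPHOS subunits 1 of 76 rose and 0 fell (median 0.03), the call being Ndufb5 of complex I at 6.95, 7.76 and 6.51 CPM in WT and 10.9, 15.2 and 18.5 CPM in Mfn1&2-/- (1.07 ± 0.22; lost when Mfn1&2-/- replicate 3 was left out, adjusted p = 0.062). Of mitochondrial ribosomal proteins 1 of 75 rose and 1 fell (median 0.09). Mrpl3, of the large subunit, fell from 33.5, 30.2 and 36.6 to 19.4, 14.9 and 17.4 CPM (log2 fold change -0.96 ± 0.19, edgeR adjusted p = 0.00811; kept without each library). Mrps23, of the small subunit, rose by 0.90 ± 0.23 (lost when WT replicate 1, 2 or 3, Mfn1-/- replicate 2, or Mfn1&2-/- replicate 1 or 3, was left out, adjusted p = 0.0519 to 0.11). Of mitochondrial proteases and chaperones 0 of 19 rose and 1 fell (median 0.01): Afg3l2, a subunit of the inner-membrane AAA protease, fell from 260.4, 226 and 268 to 159, 147 and 160.4 CPM (log2 fold change -0.70 ± 0.09, edgeR adjusted p = 0.000524), and did not differ detectably from Mfn2-/-, where it stood at 151, 148 and 151 CPM. Of cytosolic ribosomal proteins 0 of 80 rose and 1 fell (median -0.11); the call, Rps3a1 at -0.84 ± 0.21, was lost when WT replicate 2 or 3, or Mfn1&2-/- replicate 2 or 3, was left out (adjusted p = 0.0579 to 0.119), and reads shared with pseudogenes make it uncertain.

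For 5 lists of mitochondrial upkeep and energy metabolism no member was called by edgeR. The counts in brackets are those at an unadjusted p below 0.05, called by DESeq2 and called by limma-voom. Mitochondrial protein import had 0 of 33 (unadjusted 2, DESeq2 0, limma-voom 0, median 0.05) and mtDNA replication and transcription 0 of 16 (unadjusted 5, DESeq2 2, limma-voom 0, median -0.32). Pyruvate dehydrogenase and citric acid cycle had 0 of 23 (unadjusted 2, DESeq2 0, limma-voom 0, median 0.01). Fatty acid oxidation had 0 of 19 (unadjusted 2, DESeq2 0, limma-voom 0, median -0.19) and glycolysis 0 of 18 (unadjusted 5, DESeq2 1, limma-voom 0, median -0.06). In the mtDNA list, Peo1 (now Twnk), the mtDNA helicase, stood at 20.8, 39.5 and 40.9 CPM in WT and 21.7, 20.7 and 18.2 CPM in Mfn1&2-/- (-0.74 ± 0.22, adjusted p = 0.077). Tfb2m, a mitochondrial transcription factor, stood at 7.99, 4.64 and 14.3 CPM in WT and 4.8, 4.34 and 3.41 CPM in Mfn1&2-/- (-1.10 ± 0.35, adjusted p = 0.0938). Both overlapped between the groups. In glycolysis, hexokinase Hk2 stood at 1.30 ± 0.38 (adjusted p = 0.0654) and lactate dehydrogenase Ldha at -1.84 ± 0.73 (adjusted p = 0.178). For Pdk3, which inhibits pyruvate dehydrogenase, the value was 0.44 ± 0.15, for Dlat, a subunit of that enzyme, 0.48 ± 0.20. The acyl-CoA dehydrogenase Acadl stood at -0.98 ± 0.35, the thiolase Acaa2 at -1.14 ± 0.44, the import factor Gfer at 0.27 ± 0.11 and the outer-membrane protein Mtx3 at -1.40 ± 0.60.

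Of the integrated stress response list 3 of 26 rose and 0 fell (11.5% called against 4.21% of all genes, median 0.19). Without WT replicate 3 only 1 of its members was called, Eif2ak3. Eif2ak3, the ER kinase PERK, which phosphorylates eIF2-alpha and slows translation, stood at 33.6, 35.9 and 36.2 CPM in WT and at 148, 119 and 175 CPM in Mfn1&2-/- (log2 fold change 2.06 ± 0.17, edgeR adjusted p = 2.4e-06; chromosome 6, 70844515 to 70905245). The groups were far apart, and the call was kept without each library. Mfn1-/- stood at 49.5, 46.1 and 40.8 CPM and Mfn2-/- at 114, 71.8 and 89 CPM, and the double knockout was higher than both (against Mfn1-/-, 1.70 ± 0.17, edgeR adjusted p = 2.05e-05; against Mfn2-/-, 0.68 ± 0.16, edgeR adjusted p = 0.0157). Ddit4, an inhibitor of mTORC1, rose from 35.1, 39.5 and 26.1 to 47.4, 52.5 and 62.6 CPM (0.69 ± 0.16; lost when WT replicate 3, or Mfn1&2-/- replicate 2 or 3, was left out, adjusted p = 0.0511 to 0.0982). Vldlr, a lipoprotein receptor, rose from 5.67, 3.46 and 2.59 to 9.85, 11.7 and 12.1 CPM (1.52 ± 0.35; lost when WT replicate 2 or 3, or Mfn1&2-/- replicate 2 or 3, was left out, adjusted p = 0.0631 to 0.074).

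In the list of ER chaperones and the unfolded protein response 0 of 31 rose and 1 fell (median -0.11). The call was Hspa5, the chaperone BiP, at 464, 441 and 561 CPM in WT and 332, 321 and 304 CPM in Mfn1&2-/- (log2 fold change -0.62 ± 0.13, edgeR adjusted p = 0.0125), which was lost when WT replicate 3 or Mfn1&2-/- replicate 3 was left out (adjusted p = 0.0537 to 0.0541). Of the heat shock and immediate early list, which holds cytosolic chaperones, 2 of 20 rose and 1 fell (15.0% called against 4.21% of all genes, median 0.05). Hspa8, the constitutive HSP70, rose from 665, 854 and 854 to 1242, 1141 and 1011 CPM (log2 fold change 0.52 ± 0.10, edgeR adjusted p = 0.0101), and was higher than in Mfn2-/- too (0.63 ± 0.10, edgeR adjusted p = 0.00173). Hsp90ab1, the constitutive HSP90, fell from 875, 825 and 874 to 693, 565 and 638 CPM (log2 fold change -0.44 ± 0.08, edgeR adjusted p = 0.00752). Both calls were kept without each library, though both genes have processed pseudogenes whose reads may be shared. Dnajb4, an HSP40 co-chaperone, rose from 171, 189 and 207 to 349, 323 and 244 CPM (0.69 ± 0.15; lost when WT replicate 1 or Mfn1&2-/- replicate 2 was left out, adjusted p = 0.0559 to 0.056).

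Of the Keap1-Nrf2 and antioxidant list 1 of 28 rose and 2 fell (10.7% called against 4.21% of all genes, median -0.07). Keap1, which targets the transcription factor NRF2 for destruction, stood at 15.7, 12 and 10.9 CPM in WT and 28.7, 23.4 and 32.2 CPM in Mfn1&2-/- (1.13 ± 0.24; lost when WT replicate 2 or 3, or Mfn1&2-/- replicate 3, was left out, adjusted p = 0.0576 to 0.0617). Nfe2l2, which encodes NRF2, stood at 21.5, 20.6 and 22 CPM in WT and 11, 11.8 and 9.16 CPM in Mfn1&2-/- (-1.0 ± 0.21; lost when Mfn1&2-/- replicate 3 was left out, adjusted p = 0.054). Txnrd1, thioredoxin reductase, stood at 228, 231 and 246 CPM in WT and 138, 157 and 196 CPM in Mfn1&2-/- (-0.52 ± 0.12; lost when WT replicate 1, 2 or 3, or Mfn1&2-/- replicate 1 or 2, was left out, adjusted p = 0.0502 to 0.0957). Of autophagy and mitophagy genes 2 of 38 rose and 0 fell (median -0.02): Pik3r4, a subunit of the class III PI3-kinase (0.33 ± 0.09; lost when any of 9 of the 12 libraries was left out, adjusted p = 0.0563 to 0.171), and Atg9a, the membrane protein of early autophagosomes (0.78 ± 0.20; lost when WT replicate 3, Mfn1-/- replicate 2, Mfn2-/- replicate 3, or Mfn1&2-/- replicate 2 or 3, was left out, adjusted p = 0.0515 to 0.149). Intrinsic apoptosis genes had no edgeR call, 0 of 24 (unadjusted 2, DESeq2 0, limma-voom 0, median 0.08); the BCL2 relative Bcl2l10 stood at 0.25 ± 0.10 and the apoptosis inhibitor Birc3 at 0.18 ± 0.08.

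Lipid genes gave single calls in each list. Of lipid droplet and triglyceride genes 1 of 28 rose and 0 fell (median 0.00), the gene being Pnpla3. Of sphingolipid genes 1 of 26 rose and 0 fell (median -0.08): Ugcg, which makes glucosylceramide from ceramide, stood at 145, 56.9 and 62 CPM in WT and 242, 229 and 238 CPM in Mfn1&2-/- (log2 fold change 1.43 ± 0.27, edgeR adjusted p = 0.00619), with WT pool 1 well above the other WT pools. In Mfn2-/- it stood at 36.5, 55.8 and 48.9 CPM, and the double knockout exceeded Mfn2-/- by 2.33 ± 0.27, edgeR adjusted p = 0.000167. Of cholesterol genes 1 of 29 rose and 0 fell (median 0.12): Sc5d, an enzyme of late sterol synthesis, rose from 47.8, 56.5 and 69.3 to 96.1, 103 and 88.3 CPM (0.73 ± 0.16; lost when WT replicate 1 or 2, or Mfn1&2-/- replicate 2, was left out, adjusted p = 0.0528 to 0.0602).

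In the list of zona pellucida genes and oocyte growth factors 2 of 13 rose and 2 fell (30.8% called against 4.21% of all genes, median 0.07). Cd9, the tetraspanin of the egg surface needed for sperm fusion, stood at 36.8, 34.5 and 38.4 CPM in WT and 21.4, 21.4 and 18.5 CPM in Mfn1&2-/- (log2 fold change -0.84 ± 0.18, edgeR adjusted p = 0.0141; lost when Mfn1&2-/- replicate 3 was left out, adjusted p = 0.064). It was lower than in either single knockout (against Mfn2-/-, -1.23 ± 0.18, edgeR adjusted p = 0.000842). Folr4 (now Izumo1r, Juno), the egg receptor for the sperm protein Izumo1, rose from 93.8, 100.1 and 70.7 to 111, 124 and 131 CPM (0.47 ± 0.13; lost when any of 10 of the 12 libraries was left out, adjusted p = 0.052 to 0.157). Astl, ovastacin, the protease that cleaves the zona after fertilisation, rose from 433, 474 and 377 to 689.6, 507 and 901 CPM (0.71 ± 0.16; lost when WT replicate 3 or Mfn1&2-/- replicate 3 was left out, adjusted p = 0.0761 to 0.0844). Kitl, the ligand of the KIT receptor, made by granulosa cells and also placed in their marker list, stood at 10.9, 14.7 and 13.3 CPM in WT and 3.96, 3.35 and 4.92 CPM in Mfn1&2-/- (log2 fold change -1.67 ± 0.29, edgeR adjusted p = 0.00322), a call kept without each library. Within the same list the genes thus differed in direction, with Cd9 and Kitl lower and Astl and Folr4 higher.

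No oocyte marker or oocyte transcription factor was called by edgeR. Oocyte markers had 0 of 17 (unadjusted 7, DESeq2 2, limma-voom 0, median 0.07), with a summed level of 14332 to 17483 CPM in WT and 16332 to 18074 CPM in Mfn1&2-/-. Oocyte transcription factors had 0 of 22 (unadjusted 6, DESeq2 2, limma-voom 1, median 0.05). Dppa3, a maternal factor that protects DNA methylation, stood at -0.28 ± 0.09, adjusted p = 0.0773, and the secreted Oosp1 at 0.33 ± 0.10, adjusted p = 0.0786. The homeobox factor Obox2, of a family of near-identical genes, stood at -0.46 ± 0.15, and Yy1 at 0.93 ± 0.26, adjusted p = 0.0528. Of maternal effect genes 0 of 36 rose and 1 fell (median 0.01), the call being Khdc1c at 170.3, 152 and 125 CPM in WT and 67.3, 66.7 and 87.3 CPM in Mfn1&2-/- (-1.02 ± 0.22; lost when WT replicate 1 or 2, or Mfn1&2-/- replicate 2, was left out, adjusted p = 0.0505 to 0.0688), also of a gene family with close copies.

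Of genes of cAMP and meiotic arrest 0 of 23 rose and 1 fell (median -0.02). The call was Gpr3, the receptor whose activity keeps cAMP high and the oocyte arrested, at 45.8, 32.1 and 41.6 CPM in WT and 27, 19.8 and 19.2 CPM in Mfn1&2-/- (log2 fold change -0.86 ± 0.21, edgeR adjusted p = 0.027; lost when WT replicate 1 or 3, or Mfn1&2-/- replicate 2 or 3, was left out, adjusted p = 0.0748 to 0.112). Of spindle, checkpoint and cohesin genes 0 of 36 rose and 1 fell (median 0.01): Aurkc, the germ-cell Aurora kinase, stood at 51, 71.6 and 58.9 CPM in WT and 17.3, 14.5 and 41.2 CPM in Mfn1&2-/- (log2 fold change -1.31 ± 0.29, edgeR adjusted p = 0.016; lost when WT replicate 2 or Mfn1&2-/- replicate 2 was left out, adjusted p = 0.0634 to 0.0655), with pool 3 of the double knockout higher than the other 2. Cdk1, cyclin B and APC control had 0 of 39 (unadjusted 3, DESeq2 0, limma-voom 0, median 0.07), where the phosphatase genes Cdc25c and Cdc25b stood at 0.72 ± 0.25 and 0.33 ± 0.13. mRNA storage and decay had 0 of 48 (unadjusted 12, DESeq2 4, limma-voom 0, median 0.02): Cpeb1, which holds and releases polyadenylation, stood at 0.28 ± 0.08, adjusted p = 0.059, and Btg4, which brings the deadenylase to maternal mRNA, at 0.33 ± 0.10, adjusted p = 0.0645.

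Of the list of piRNA, transposon silencing and meiotic genes 1 of 44 rose and 3 fell (9.09% called; median 0.01). Besides Tex15, Henmt1, which methylates the 3′ end of piRNAs, fell from 91, 115 and 92.3 to 32.3, 52.3 and 48.6 CPM (log2 fold change -1.16 ± 0.19, edgeR adjusted p = 0.00301; kept without each library). It stood at 28.7, 32.5 and 46.9 CPM in Mfn2-/-, not detectably different from the double knockout. Mov10, an RNA helicase, fell from 6.79, 13 and 3.84 to 0.168, 0.263 and 2.35 CPM (-3.08 ± 0.77; lost when WT replicate 1 or 2, or Mfn1&2-/- replicate 1 or 2, was left out, adjusted p = 0.056 to 0.137). Mael, a piRNA pathway protein, rose from 60.8, 43.2 and 50.5 to 78.6, 84.3 and 86.7 CPM (0.69 ± 0.15; lost when WT replicate 2 or Mfn1&2-/- replicate 3 was left out, adjusted p = 0.051 to 0.0643). DNA and histone methylation genes had 0 of 46 (unadjusted 8, DESeq2 4, limma-voom 0, median 0.00), where Tet1, which oxidises methylcytosine, stood at -1.63 ± 0.46, adjusted p = 0.0559 and the methyl-binding Mbd1 at 0.89 ± 0.26, adjusted p = 0.071.

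Signalling and nuclear lists each held 1 or 2 calls. Of Kit, PI3K, Foxo3 and mTOR genes 1 of 30 rose and 0 fell (median -0.04), the gene being Pik3cd, and of Hedgehog genes 1 of 11 rose and 0 fell (median 0.23), the gene being Gli3. Of core spliceosome genes 1 of 59 rose and 0 fell (median 0.03), the gene being Cdc5l. Of interferon and nucleic acid sensing genes 2 of 20 rose and 0 fell (median 0.05): Mb21d1 (now Cgas), the sensor of cytosolic DNA, rose from 87.4, 89.7 and 97 to 143, 168 and 117 CPM (0.65 ± 0.14; lost when WT replicate 2 or Mfn1&2-/- replicate 2 was left out, adjusted p = 0.0534 to 0.0753). Stat2, a factor of interferon signalling, rose from 14.1, 18.1 and 14.2 to 23.7, 26.1 and 24.4 CPM (0.68 ± 0.17; lost when WT replicate 1 or 3, or Mfn1&2-/- replicate 2 or 3, was left out, adjusted p = 0.0781 to 0.107). Adhesion and gap junction genes between oocyte and granulosa cells had 0 of 26 (unadjusted 7, DESeq2 2, limma-voom 1, median -0.14). There the receptor Notch2 stood at 27, 31.5 and 70.3 CPM in WT and 78.5, 83.5 and 76.6 CPM in Mfn1&2-/- (0.89 ± 0.24, adjusted p = 0.0523). Connexin 43, Gja1, stood at 15.4, 28.5 and 184 CPM in WT and 15.6, 7.63 and 7.8 CPM in Mfn1&2-/- (-2.88 ± 0.80, adjusted p = 0.0543).

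**Figure D3:**
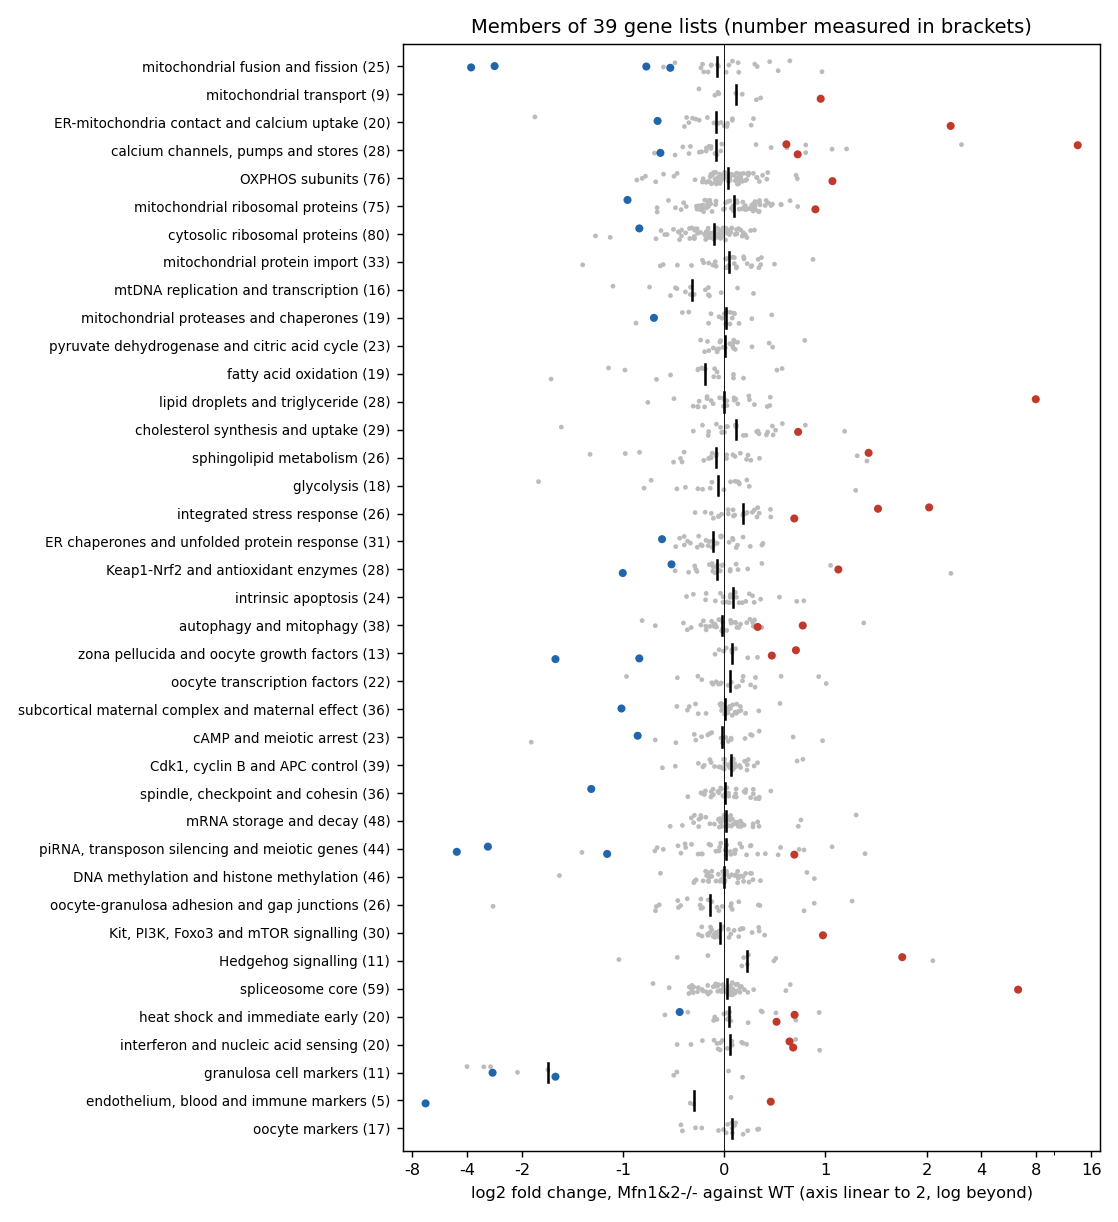
Log2 fold change of each measured member of 39 gene lists, Mfn1&2-/- against WT, with 1 point per gene (red called higher, blue called lower, grey not called) and a black bar at the list's median; the axis is linear to 2 and logarithmic beyond. The median lies farthest from 0 for granulosa cell markers (-1.74), and most members of the lists are grey.

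Markers of other cells in the preparation were read from the same fit. Of granulosa cell markers 0 of 11 rose and 2 fell (unadjusted 7, DESeq2 4, limma-voom 1, median -1.74, or -0.65 without WT replicate 3). All members called by DESeq2 or limma-voom were lower. Inha, the inhibin alpha subunit, stood at 8.55, 19.8 and 77.9 CPM in WT and 5.98, 3.09 and 5.22 CPM in Mfn1&2-/- (-2.90 ± 0.70), a call lost when WT replicate 3, or Mfn1&2-/- replicate 2 or 3, was left out (adjusted p = 0.0879 to 0.184). Inhba stood at 1.84, 5.31 and 71.3 CPM in WT and 1.26, 1.91 and 1.67 CPM in Mfn1&2-/- and Inhbb at 4.47, 10.6 and 155 CPM in WT and 5.22, 7.76 and 5.0 CPM in Mfn1&2-/-, neither of them called. The summed level of the 11 markers was 515 to 893 CPM in WT and 490 to 514 CPM in Mfn1&2-/-. The part of these cells in the other results was not tested. Fewer cells of a type and less RNA per cell cannot be told apart in pools. Of 5 endothelium, blood and immune markers 1 rose, Pecam1 from 102, 97.8 and 100.0 to 140.0, 127 and 145 CPM (0.46 ± 0.10; lost when WT replicate 2 or Mfn1&2-/- replicate 3 was left out, adjusted p = 0.0624 to 0.0743), and 1 fell, Tie1. Their summed level was 152 to 156 CPM in WT and 168 to 193 CPM in Mfn1&2-/-. Of 21 listed granulosa markers 10, among them Amh, Foxl2 and Cyp11a1, and of the endothelium, blood and immune list 17 of 22, as well as all theca and stroma markers, have no row in the table and were not analysed here.

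The share of genes called differed between chromosomes. It was highest on chromosome 4 (58 of 735 genes, 7.89%), which carries Mfn2, then on chromosome 18 (22 of 291, 7.56%) and on chromosome 3 (36 of 517, 6.96%), which carries Mfn1, and lowest on chromosome 12 (9 of 406, 2.22%). Within 10 Mb of Mfn1, 5 of 56 other genes were called (8.93%). Of these Gnb4, a G protein subunit whose span begins 1.09 kb beyond the end of Mfn1, fell from 117, 106 and 119 to 77.6, 74.9 and 73.7 CPM (-0.60 ± 0.10). Actl6a, a chromatin remodelling subunit, fell from 73.6, 62.1 and 62.1 to 32, 33.5 and 39.1 CPM (-0.92 ± 0.16), and Mccc1, an enzyme of leucine breakdown, fell from 16.5, 10.3 and 12.9 to 1.09, 5.0 and 3.41 CPM (-2.05 ± 0.45). Within 10 Mb of Mfn2, 18 of 160 other genes were called (11.2%), 11 higher and 7 lower, among them Dhrs3 and Pik3cd.

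Over 254 windows of 10 Mb with at least 10 tested genes, the median share called was 3.25%, and 83 windows held no called gene. The highest share was between 30 and 40 Mb of chromosome 8, with 9 of 25 genes (36.0%; 6 of 25 without WT replicate 3). Tex15, Rbpms, an RNA-binding protein (-0.83 ± 0.17), and Lonrf1, a RING finger protein (-1.11 ± 0.19), fell there, while Tmem66 (now Saraf), a brake on store-operated calcium entry (0.89 ± 0.17), Tusc3, a subunit of ER glycosylation (1.69 ± 0.42), Dusp4 and Ppp1r3b rose. The Rbpms call was lost when WT replicate 3 was left out (adjusted p = 0.0514) and that of Tusc3 was lost when WT replicate 2 or 3, or Mfn1&2-/- replicate 2 or 3, was left out (adjusted p = 0.0577 to 0.0907). Lonrf1 stood at 95.4, 104 and 111 CPM in WT, 50.2, 48.2 and 44.9 CPM in Mfn1&2-/- and 55.4, 57.2 and 105 CPM in Mfn2-/-, so that Mfn2-/- pools 1 and 2 lay near the double knockout and pool 3 in the WT range. Tusc3 split likewise in Mfn2-/-, at 87.2, 84.8 and 20.6 CPM.

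The next windows were 2 on chromosome 18, with 5 of 23 genes called between 80 and 90 Mb (21.7%) and 6 of 31 between 70 and 80 Mb (19.4%); without WT replicate 3 they held 2 and 3. Cyb5, the electron carrier cytochrome b5 of the ER, fell from 122, 114 and 96.5 to 55.7, 58.7 and 61.5 CPM (log2 fold change -0.92 ± 0.14, edgeR adjusted p = 0.00157). Pstpip2, an actin-associated adaptor, rose from 56.1, 66.7 and 74 to 128, 100.3 and 112 CPM (log2 fold change 0.79 ± 0.15, edgeR adjusted p = 0.00703). Katnal2, a relative of the microtubule-severing katanin, rose from 27.2, 26.3 and 26.6 to 41.1, 43.5 and 48.9 CPM (log2 fold change 0.74 ± 0.14, edgeR adjusted p = 0.00753). These 3 calls and that of Zbtb7c were kept without each library. The other named calls there were less stable: Tshz1 (0.56 ± 0.12) was lost when WT replicate 3 was left out (adjusted p = 0.0525). Zfp407 (-0.42 ± 0.11) was lost when any of 9 of the 12 libraries was left out (adjusted p = 0.05003 to 0.148). Cndp1, a dipeptidase (0.58 ± 0.15), was lost when WT replicate 1, 2 or 3, Mfn2-/- replicate 3, or Mfn1&2-/- replicate 1 or 3, was left out (adjusted p = 0.0573 to 0.12). Poli, a DNA polymerase (-0.57 ± 0.15), was lost when any of 8 of the 12 libraries was left out (adjusted p = 0.0518 to 0.156). Loxhd1, known from hair cells (no WT count, at least 15-fold higher), was lost when WT replicate 1, 2 or 3, Mfn2-/- replicate 2, or Mfn1&2-/- replicate 2 or 3, was left out (adjusted p = 0.0532 to 0.119). Rnf165 (1.24 ± 0.32) was lost when any of 8 of the 12 libraries was left out (adjusted p = 0.0514 to 0.206).

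Some called genes lay side by side. Of the 476 located called genes 93 (19.5%) had a called gene as a direct neighbour among tested genes, against 826 of the 10798 genes not called (7.65%). There were 52 neighbouring pairs with both genes called, 37 of them in the same direction, and 5 of the 52 had overlapping spans. Without WT replicate 3 the shares were 54 of 340 (15.9%) and 605 of 10934 (5.53%). A run of 5 neighbours on chromosome 4 fell together: Slc30a2, a zinc transporter (-2.87), Extl1 (-4.66), Stmn1, a microtubule destabiliser (-0.86), Mtfr1l (-0.77) and Man1c1, a Golgi mannosidase (-2.14). On chromosome 6, Foxi3 starts 51.3 kb beyond the end of Eif2ak3, and both rose. Farther along, Kdm3a, a histone demethylase (0.94), and Reep1, a shaper of the ER (2.24), rose side by side. The neighbours Clstn1 (0.70) and Pik3cd, which lie 0.269 kb apart, both rose, whereas Ptprv rose beside Arl8a, a lysosomal GTPase that fell (-2.76). Of the neighbours named here, Stmn1 alone was not called without WT replicate 3 (adjusted p = 0.05004). The sources used here do not say how reads of overlapping genes were assigned.

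**Figure D4:**
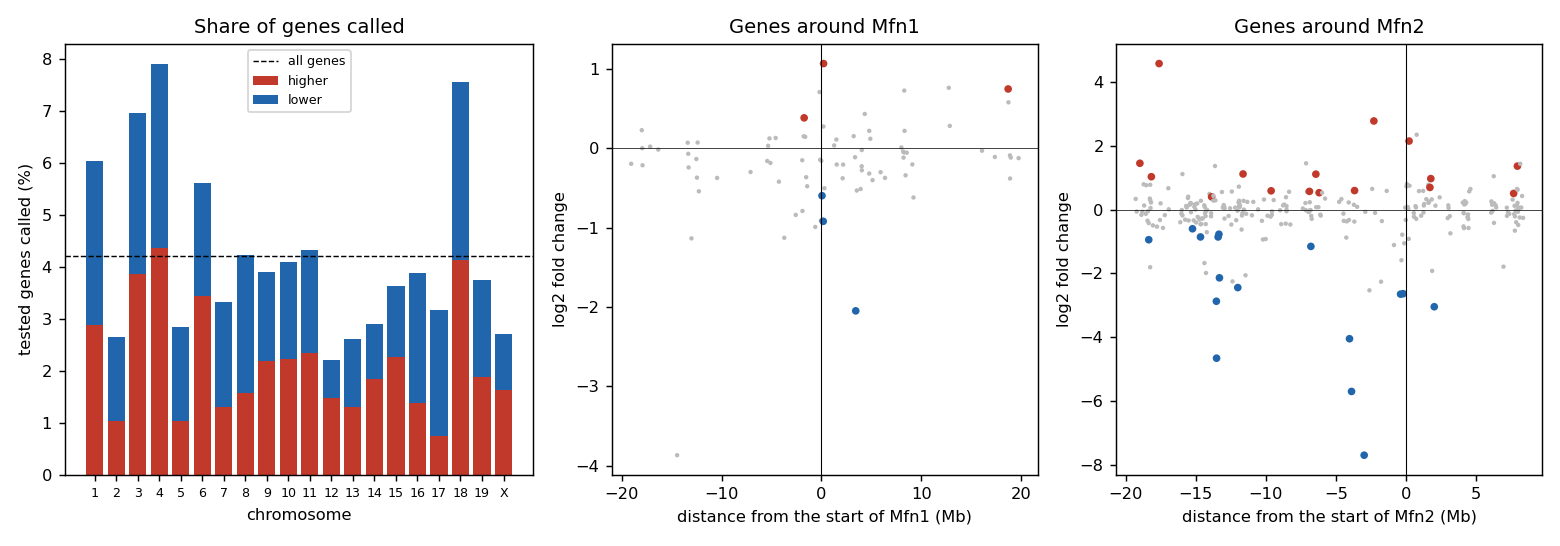
Left, percent of tested genes called on each chromosome (red higher, blue lower; the dashed line is the 4.21% of all genes). Middle and right, log2 fold change of the genes within 20 Mb of the start of Mfn1 and of Mfn2, with 1 point per gene and called genes coloured; the targeted genes themselves are left out. Chromosomes 4, 18 and 3 have the highest shares, and called genes on either side of Mfn2 go in both directions.

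Called genes were also described by gene type, span and promoter letters. Protein-coding genes made up 97.7% of located genes, 97.5% of the risen and 97.1% of the fallen. The median span was 34.7 kb for risen and 35.9 kb for fallen genes, against 28.2 kb over all. RefSeq promoters were matched for 9038 tested genes, 183 risen and 173 fallen. The motifs were searched on both strands. TAATTG is a homeobox site of the NOBOX type and CANNTG the E-box core, which is unmarked in the runs above. CACGTG is the E-box palindrome, a subset of that core. TATAAA stands for the TATA box, CCAAT for the box of that name, GGGCGG for the GC box and GTAAACA for a FOXO site. Also searched were TGATGNAAN (C/EBP-ATF), TGACNNNGC (antioxidant element) and TGACGTCA (full cyclic AMP element).

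The homeobox motif was in 5.46% of risen, 4.62% of fallen and 5.10% of all matched promoters, and the C/EBP-ATF motif in 2.73%, 2.31% and 2.26%. CCAAT was in 42.1%, 38.2% and 39.3%, TATAAA in 5.46%, 6.36% and 6.86%, and GTAAACA in 2.19%, 1.16% and 2.22%. The E-box core was in 63.4%, 69.9% and 63.3%, and its palindrome in 9.29%, 4.62% and 10.3%. The antioxidant element was in 18%, 12.7% and 15.1%, and TGACGTCA in 3.83%, 0.578% and 3.50%. The GC box was less frequent in both sets, at 56.3% and 54.3% against 64.1%. Among the 20 matched genes that fell more than 8-fold, 3 had a GC box (15%), with a median of 8 CpG in the window against 21 over all. The 20 that rose more than 8-fold had it in 13 (65%), with a median of 19 CpG. These are descriptions of letters in a window, without a test.

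Without WT replicate 3 the double knockout differed from WT in 342 genes (3.00%), 170 higher (1.49%) and 172 lower (1.51%). Of the 479 calls 292 stayed in the same direction, 187 were lost, and 50 were called only then. Fitting the 5 remaining libraries of the 2 groups alone gave 256 calls. Of the genes described above, 5 with large changes and calls kept without each library stood as follows in this repeat: Pnpla3 was at 8.73, adjusted p = 3.03e-07, Cdc5l at 6.86, adjusted p = 2.46e-08, Eif2ak3 at 2.08, adjusted p = 3.3e-05, Tex15 at -4.41, adjusted p = 0.00754 and Glt25d2 at -5.75, adjusted p = 8.49e-06 on the log2 scale. These 5 were chosen from calls kept without each library, WT replicate 3 included, so that they stayed called here follows from the choice. Of the 99 calls of genes chosen by rule, 30 were lost in this repeat, among them those of Rnase6 and Vldlr. Lists that lost calls were the integrated stress response (1 higher and 0 lower, Eif2ak3), autophagy (0 and 0), the zona and growth factor list (0 and 2, Cd9 and Kitl), ER chaperones (0 and 0), antioxidant genes (0 and 1, Nfe2l2) and interferon genes (1 and 0, Mb21d1). Mitochondrial transport (0 and 0), mitochondrial ribosomal (0 and 1, Mrpl3), cytosolic ribosomal (0 and 0) and granulosa lists (0 and 1, Kitl) also lost calls.

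Some list members were called only in that repeat, and for the 2 described first WT replicate 3 stood apart from the other WT pools. Hormad1, a protein of the meiotic chromosome axis, stood at 2.95, 1.01 and 34.3 CPM in WT and 43.2, 38.3 and 18.9 CPM in Mfn1&2-/- (4.06, adjusted p = 0.000667 without WT replicate 3, against 1.39 ± 0.76, adjusted p = 0.348 with it). Adcy1, an adenylyl cyclase, stood at 76.2, 52 and 2.67 CPM in WT and 4.29, 12.7 and 17.7 CPM in Mfn1&2-/- (-2.46, adjusted p = 0.0023, against -1.91 ± 0.68, adjusted p = 0.132). In both, WT replicate 3 lay in or below the range of the double knockout while the other WT pools lay outside it. Notch2 rose in the repeat (1.44, adjusted p = 1.24e-05), as did Sycp3 of the synaptonemal complex (1.13, adjusted p = 0.0189) and Hsd17b7 of cholesterol synthesis (0.70, adjusted p = 0.0353). With Adcy1 in place of Gpr3 (-0.82, adjusted p = 0.0748), the cAMP list kept 1 fallen gene, and the piRNA and meiotic list held 3 risen and 3 fallen. In the other direction, Malat1, a nuclear noncoding RNA, stood at 50.1, 74.9 and 229 CPM in WT and 35.6, 32.8 and 49 CPM in Mfn1&2-/-. Its call (-1.59 ± 0.42, adjusted p = 0.0425) was lost in the repeat (-0.68, adjusted p = 0.24).

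**Figure D5:**
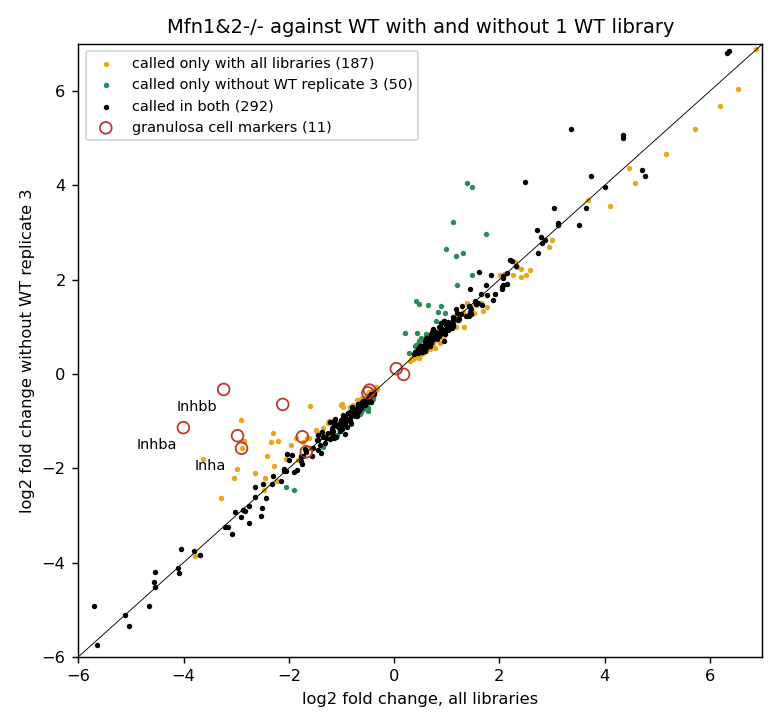
Log2 fold change of Mfn1&2-/- against WT with all libraries (horizontal axis) and without WT replicate 3 (vertical axis), with 1 point per gene called in either fit; 22 called genes lie outside the axes, and red circles mark 11 granulosa cell markers, called or not. Black points (292) were called in both fits; Inha, Inhba and Inhbb move towards 0 without that library.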

How the data were processed

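Total RNA of 12 pools of oocytes was extracted with a PicoPure kit, depleted of ribosomal RNA, made into libraries with a SMARTer stranded kit and sequenced as 100 bp paired reads, per the labels. FastQC 0.11.7, STAR 2.7.0a, edgeR (no version) and mm10 come from the submitters' processing notes. The authors deposited raw counts per gene; not given in the sources used here are the counter, annotation, strand setting and handling of multi-mapped reads. Every gene in the table reached 1 CPM in at least 3 libraries. The CPM table was not used.

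Groups came from the labels. Counts were scaled by TMM and fitted in edgeR 4.0.16 (R 4.3.3) as 4 group means over the 12 libraries, which leaves 8 residual degrees of freedom; filterByExpr removed no gene. Standard errors are the absolute log2 fold change over the square root of F. Against a group without counts a fold is a bound at 3 counts over the group; with 1 to 3 counts a ratio has a 95% interval. Both cover counting error only. Members and lists were chosen with earlier results of these data known.

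Named are Mfn1, Mfn2, the 12 called genes with the largest fold (at least 5 CPM, no overlap) and the 10 with the largest CPM difference per direction, called list members, per direction the 10 with most counts among called genes with at most 3 counts in the other group, called genes of the 3 fullest windows, and the 2 smallest p of lists without a call. Predicted names (29 of the called) were counted only, and a few genes the rule names are not reported here. Gene runs, list members gained without WT replicate 3, Malat1 and the neighbours were chosen after their values were seen. Symbols were located in GENCODE vM21 (11274 of 11385, 574 under another name). Alternatives used DESeq2 1.42.0 and limma 3.58.1. The fit was tested on simulated data.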

Additional observations from a re-analysis of the deposited data

How the results depend on the processing

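The count of 479 called genes was within 1.5 times under RLE scaling (482), library size only (487), limma-voom (408) and 5 CPM in 3 libraries (482). The same held with only the 6 libraries compared (323), which kept 296 of the 479 calls in the same direction. Fitting without a filter repeated the main fit (479), because filterByExpr removed no gene. The count was 834 with the DESeq2 Wald test and 93 with the 1.5-fold threshold, a stricter hypothesis. Leaving out each of the 12 libraries in turn gave 282 to 550 calls. The counts lower than 479 by more than 1.5 times were 301 (WT replicate 2 left out), 282 (Mfn1&2-/- replicate 2) and 297 (Mfn1&2-/- replicate 3); the highest, 550, came without Mfn1&2-/- replicate 1. The 342 calls without WT replicate 3 became 256 with only the 5 libraries left. With the replicate number as a block 410 genes were called. WT and Mfn1&2-/- libraries of the same replicate number did not deviate together (correlations of -0.06, -0.02 and -0.01). The numbers in the column names of the counts differ in part from the replicate numbers, and a batch shared by those was not tested. Of 99 named calls, 48 were kept without each library and 23 under every alternative. The 1.5-fold threshold lost 66, only the 6 libraries compared 19, limma-voom 18 and the replicate block 13. Those lost with only the 6 libraries include Ndufb5, Astl, Aurkc, Ddit4, Gpr3, Stat2, Cacnb2 and Txnrd1. None of 2571 alternative values of the named genes changed sign. Most of these genes were chosen as called, and the alternatives reuse the same counts, so unchanged signs follow largely from the choice. Lone libraries were never left in a group. The number of pools, 3 per group, limits the precision.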
